A study of Drosophila melanogaster with 2 samples.

Results

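Among the thresholded binding peaks of GFP-tagged Ovo in adult female Drosophila melanogaster, 407 of 4477 lay in introns of autosomal genes, far from any transcription start. A peak was counted here where its summit was not on X, lay inside a protein-coding transcript but in no exon of a protein-coding gene, and was more than 2000 bp from the nearest protein-coding transcription start site (TSS). The thresholded list held 3446 autosomal peaks in all. The data are chromatin immunoprecipitation followed by sequencing (ChIP-seq) of whole adult females of a stable transgenic line in which GFP is fused to the C terminus of Ovo. An antibody against GFP was used on chromatin sonicated to between 200 and 800 bp, in 2 biological replicates numbered 1 and 4. Both replicates carry the transgene and form 1 group, of unrecorded age, so no conditions could be compared. The named control experiment was not analysed here. Chromatin came from whole flies, so tissues cannot be told apart here, and no marker of a cell type was measured.

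Ovo is a zinc-finger transcription factor best known for its role in the female germline, where it acts at promoters of oogenesis genes, and forms of the protein also act in the epidermis. Long introns of Drosophila genes often hold enhancers, stretches of DNA to which transcription factors bind and which act on a promoter at a distance. A peak in an intron marks where the tagged protein, or chromatin attached to it, was recovered, and does not show which promoter, if any, it acts on.

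The sequences under the highest-scoring peaks show what lay at these summits. Each is the 101 bp centred on a summit, given 5′ to 3′ on the plus strand of Release 6 of the genome (dm6, RefSeq copy). Capitals mark the Ovo core site TAACNGT, whose reverse complement is ACNGTTA, and the 6-mer GTAAAC, whose reverse complement is GTTTAC. The first set holds the 8 peaks of highest score with a core site on the arms shown, because they show the site in place. Their windows are beat-Ib chr2L:15913535-15913635, CG33298 chr2L:9497487-9497587, Galphai chr3L:6976077-6976177, ich chr3R:8955557-8955657, chrb chr3L:11491640-11491740, glec chr3R:21853037-21853137, Pgant5 chr2L:5080392-5080492 and drn chr3R:9353108-9353208.
beat-Ib: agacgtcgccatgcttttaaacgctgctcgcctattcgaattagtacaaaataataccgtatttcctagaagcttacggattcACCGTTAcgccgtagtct
CG33298: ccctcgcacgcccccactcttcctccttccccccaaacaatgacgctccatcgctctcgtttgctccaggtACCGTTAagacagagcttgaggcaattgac
Galphai: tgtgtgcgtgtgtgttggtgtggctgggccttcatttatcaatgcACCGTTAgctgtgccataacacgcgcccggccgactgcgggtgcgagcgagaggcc
ich: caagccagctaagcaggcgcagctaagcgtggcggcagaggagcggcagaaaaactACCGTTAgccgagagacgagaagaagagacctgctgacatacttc
chrb: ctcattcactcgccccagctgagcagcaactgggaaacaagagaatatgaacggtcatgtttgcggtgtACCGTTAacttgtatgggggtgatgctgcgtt
glec: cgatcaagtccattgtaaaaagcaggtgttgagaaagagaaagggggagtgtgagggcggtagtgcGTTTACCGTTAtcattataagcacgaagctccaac
Pgant5: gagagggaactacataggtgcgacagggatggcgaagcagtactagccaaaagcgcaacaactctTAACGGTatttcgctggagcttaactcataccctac
drn: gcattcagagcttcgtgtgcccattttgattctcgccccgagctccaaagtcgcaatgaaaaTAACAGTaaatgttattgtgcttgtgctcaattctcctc
In beat-Ib, CG33298, Galphai, ich, chrb and glec the site stood on the minus strand, and in Pgant5 and drn on the plus strand. Its centre lay between 2 bp to the left (Galphai) and 36 bp to the right (beat-Ib) of the summit. The drn site had A at the open position of the core, and the other 7 had G. In glec the 6-mer GTTTAC overlapped the core site.

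The second set holds the 3 peaks of highest score with no core site within 50 bp, because they were also the 3 strongest of all 407. Their windows are smash chr3R:4665100-4665200, spen chr2L:166640-166740 and ush chr2L:485821-485921.
smash: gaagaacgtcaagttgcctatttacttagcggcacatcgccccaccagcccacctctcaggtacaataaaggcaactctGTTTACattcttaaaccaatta
spen: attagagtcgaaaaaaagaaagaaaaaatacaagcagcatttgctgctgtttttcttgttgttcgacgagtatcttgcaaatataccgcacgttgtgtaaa
ush: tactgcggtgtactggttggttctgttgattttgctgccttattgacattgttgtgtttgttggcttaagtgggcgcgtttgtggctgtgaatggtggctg
Of these 3, smash carried the 6-mer GTTTAC, and spen and ush carried neither marked site. The third set holds the next 3 peaks by score with GTAAAC on the arms shown, glec aside, and was chosen after the 6-mer counts were known. Their windows are CG13917 chr3L:1591829-1591929, wts chr3R:30802932-30803032 and bmm chr3L:14780351-14780451.
CG13917: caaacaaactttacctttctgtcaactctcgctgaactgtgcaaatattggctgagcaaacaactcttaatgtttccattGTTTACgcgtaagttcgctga
wts: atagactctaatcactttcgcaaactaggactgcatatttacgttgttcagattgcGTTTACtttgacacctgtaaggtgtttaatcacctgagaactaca
bmm: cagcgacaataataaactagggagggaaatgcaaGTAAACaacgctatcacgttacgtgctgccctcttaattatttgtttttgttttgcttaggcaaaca
The gene bmm encodes brummer, the fly's main triglyceride lipase, and wts encodes the Warts kinase of the Hippo pathway.

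The rule required more than 2000 bp from a TSS, which favours long introns, so the distances below are descriptions. The distance to the nearest protein-coding TSS had quartiles of 3160, 4964 and 7854 bp and reached 44480 bp. The intron around the summit had a median length of 11240 bp. The nearest exon of the host was at a median of 2414 bp and a first quartile of 1177 bp, with 5 summits within 100 bp of one. These distances were not set against other positions in the same introns. A first intron of any host transcript held 260 of the 407 summits (63.9%, 95% Clopper-Pearson interval 59.0% to 68.6%). The share of eligible intron that is first intron was not calculated, so this count does not show a preference. The nearest TSS belonged to the host gene itself for 328 (80.6%). Counting the nearest TSS of any gene, the summit lay downstream of it for 292 (71.7%). For 73 (17.9%) the nearest TSS was one of the host and the summit lay upstream of it. A summit inside a transcript is always downstream of the TSS of that transcript, so the rule partly sets this direction. Exons of non-coding genes held 10 summits, and 12 lay within 500 bp of a non-coding TSS. No summit lay in an annotated transposable element, which allows a share of up to 0.902%. The count was also 0 for autosomal intronic peaks nearer a TSS, autosomal promoter peaks and far intronic peaks on X. The share of eligible intron inside such elements is not given here, so this count does not set the far intronic peaks apart.

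These peaks thinned out with distance from the TSS. Autosomal introns held 34.6 Mb of sequence more than 2000 bp from a TSS, 75.3% of all autosomal intron, and the 407 summits gave 11.8 per Mb (exact 95% Poisson interval 10.6 to 12.9). Autosomal intron 501 to 2000 bp from a TSS held 451 summits, or 54.3 per Mb (49.4 to 59.5). Between 2001 and 3000 bp there were 91 summits at 23.3 per Mb, and between 3001 and 5000 bp 119 at 20.8 per Mb. The density was 14.0 per Mb at 5001 to 10000 bp, 8.99 per Mb at 10001 to 20000 bp and 1.39 per Mb (0.741 to 2.38) beyond 20000 bp. The last 3 intervals did not overlap one another. Just inside the limit of the rule, from 2001 to 2250 bp, lay 23 summits at 21.5 per Mb with a median score of 106.7. Just outside it, from 1751 to 2000 bp, lay 49 summits at 42.9 per Mb with a median score of 107.9.

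The peaks were spread over the 4 large autosomal arms. Arm 2L held 90 (13.3 per Mb of eligible intron, interval 10.7 to 16.3), 2R 99 (13.4 per Mb, 10.9 to 16.3), 3L 107 (12.7 per Mb, 10.4 to 15.3) and 3R 111 (9.61 per Mb, 7.90 to 11.6). Chromosome 4 held 0 in 0.451 Mb, which allows up to 8.19 per Mb by the same interval. On X the same rule found 147 summits, or 19.2 per Mb (16.2 to 22.6), an interval above that of each autosomal arm except for a small overlap with 2L and 2R.

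**Figure D1:**
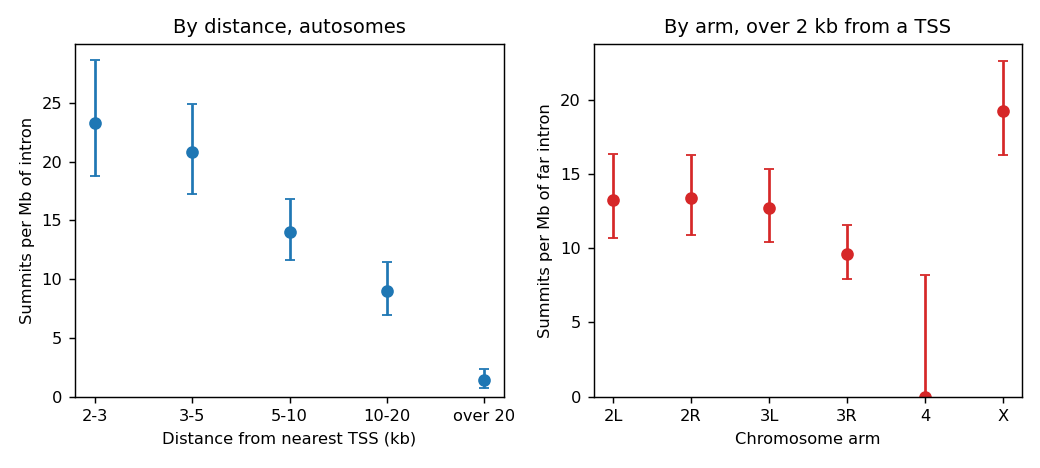
Summits per Mb of intron (points) with exact 95% Poisson intervals (bars): left, autosomal far intronic summits by distance from the nearest TSS; right, by chromosome arm, all more than 2 kb from a TSS. Density was 23.3 per Mb at 2001 to 3000 bp and 1.39 per Mb beyond 20000 bp, and chromosome 4 held none.

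Each thresholded peak carries a score that the authors derived from the alignments of both replicates and of the control. The score serves here for ordering and description alone. The far intronic peaks scored from 74.99 to 750.4, with quartiles of 88.5, 105.8 and 149.8. The median was 115.2 for autosomal intronic peaks 501 to 2000 bp from a TSS, 118.2 for autosomal promoter peaks (within 500 bp of a TSS) and 110.4 for far intronic peaks on X. Of the 407, 67 (16.5%) were among the 1000 highest-scoring thresholded peaks. That share was 24.6% for near intronic, 21.7% for promoter and 21.8% for X far intronic peaks.

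Both replicates listed most of these peaks. A summit within 100 bp was listed for 386 of 407 in replicate 1 and for 392 in replicate 4, 372 had one in both and 1 in neither. For autosomal promoter peaks the counts were 2127 and 2145 of 2230. Each replicate list holds 30000 peaks, and the thresholded list was made from both replicates by a reproducibility procedure. High counts were thus largely set in advance. The median rank of those listed was 2656 in replicate 1 and 2497 in replicate 4. Across the 372 listed in both, the ranks had a Spearman correlation of 0.59, a description over peaks that share the same 2 libraries. Among the 4477 best of each replicate, 265 of the 407 (65.1%, interval 60.3% to 69.7%) were found in both, where all thresholded peaks had 67.9%. The share was 64.8% for near intronic, 68.4% for promoter and 64.0% for X far intronic peaks, so the far intronic peaks stood near the background on this measure.

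**Figure D2:**
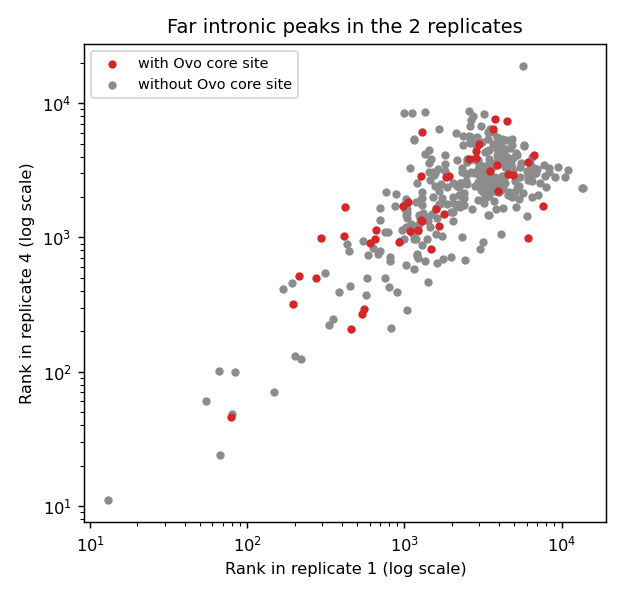
Rank of each far intronic peak in replicate 1 (x, log scale) and replicate 4 (y, log scale), for the 372 listed in both; red points have an Ovo core site within 50 bp of the summit. The smash peak, at ranks 13 and 11, is at the lower left.

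The 15 strongest far intronic peaks lay in 15 different genes. The first (chr3R:4664964-4665336) scored 750.4 in smash, which encodes a LIM-domain protein of epithelial junctions. It ranked 12 in the thresholded list, 13 in replicate 1 and 11 in replicate 4, and its summit was 5571 bp downstream of the smash TSS. The second (chr2L:166562-166800) scored 562.7 in spen, a large nuclear RNA-binding protein, with ranks of 67 in replicate 1 and 24 in replicate 4. The third (chr2L:485754-485978) scored 499.1 in ush, a zinc-finger partner of GATA factors, with ranks of 55 and 61.

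The fourth, with a core site, scored 491.8 in beat-Ib, an immunoglobulin-domain protein of the beaten path family of axon guidance molecules. It lay on the upstream side of CG13244, whose TSS was the nearest at 3303 bp, within the 31085 bp intron of beat-Ib. EDTP, a phosphoinositide phosphatase named for its abundance in eggs, held the fifth at 485.8. The next were in CG12769 (442.7), sbb (437.6) and CG32486 (406.8). The gene sbb encodes the nuclear corepressor scribbler, and its summit was 20114 bp from a TSS. The remaining 7 scored from 298.8 to 370.0. They lay in osp, in CG13917, in rdx, which encodes a cullin adaptor that limits Hedgehog signalling, in oys, a membrane-bound acyltransferase, in Snoo, a corepressor of TGF-β signalling, in CG4080 and in CG33298. Those in oys and CG33298 had a core site. Ranks of these 15 peaks ran from 13 to 456 in replicate 1 and from 11 to 413 in replicate 4.

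The 407 summits lay in 261 host genes, of 3572 autosomal protein-coding genes that had any intron more than 2000 bp from a TSS (7.31%). A single summit was found in 174 hosts, 2 in 50, 3 in 19, 4 in 4, 5 in 7, 6 in 4, 7 in 2 and 8 in 1. The 87 hosts with 2 or more held 241 of the 407 summits (59.2%). Genes can lie inside one another, and 20 summits counted for more than 1 host. Part of the repetition was short-range: 86 summits (21.1%) had another of the 407 within 1000 bp, and 46 peaks overlapped another thresholded peak, so some neighbours share the same DNA fragments. Including peaks of any class, 96 (23.6%) had another thresholded summit within 1000 bp, where 30.6% of all thresholded peaks did. When summits within 1000 bp of the next were counted once, the 407 became 363 groups of at most 3, and 71 hosts still had 2 or more.

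Hosts were long genes. The median length of eligible intron was 16.0 kb in hosts and 1.17 kb in the other 3311 genes. Among genes with at most 1 kb of eligible intron 5 of 1583 were hosts (0.316%). The share was 12.3% at 5 to 10 kb, 21.4% at 20 to 50 kb (77 of 360 genes) and 27.3% above 50 kb (36 of 132). Per 10 kb of eligible intron there were 0.112 summits in genes with at most 1 kb, 0.282 at 1 to 5 kb, 0.266 at 5 to 10 kb, 0.195 at 10 to 20 kb, 0.1197 at 20 to 50 kb and 0.0475 above 50 kb.

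The gene with most summits was crp (chr2L:16263556-16287730, minus strand), which encodes the helix-loop-helix transcription factor Cropped, known for its part in branching of the tracheal airways. Its 8 summits lay between 2.77 and 18.1 kb from the 5′ end of the 24.2 kb gene and scored from 77.8 to 216.7. The strongest ranked 544 in replicate 1 and 941 in replicate 4. One of the 8, scored 91.6, was listed only in replicate 4 and another, scored 77.8, only in replicate 1. A core site was found at 2 of the 8. With summits within 1000 bp counted once crp had 6 groups, as did Eip74EF, and CG46467 and Glut4EF had 7. By single summits, crp was followed by the overlapping genes CG46467 and Glut4EF with the same 7 summits, of scores from 76.9 to 123.1, between 3.23 and 76.6 kb from their 5′ ends.

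Other genes with many summits encode regulators of transcription. The gene osa, which encodes a subunit of the Brahma chromatin remodelling complex, had 6, of scores from 86.8 to 263.8. Pdp1, which encodes a transcription factor of the clock and of growth, had 6, of 83.1 to 222.6. The Ets factor gene Eip74EF had 6, of 75.02 to 184.9, and the nuclear receptor gene Eip75B had 6, of 79.1 to 169.3. Both genes respond to the steroid hormone ecdysone. The nuclear receptor gene ftz-f1 had 5, of 75.1 to 149.6, and aop, which encodes the Ets repressor Yan, had 5, of 80.6 to 129.5. The cell cycle and chromatin regulator tara had 5 summits in 2 groups, at 10.1 to 11.4 kb and at 24.4 to 25.02 kb from its 5′ end. Of these, the one scored 89.4 was listed in replicate 1 only, and the one scored 100.5 ranked 994 in replicate 1 and 8398 in replicate 4.

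Further hosts with 5 or 4 summits act in signalling and metabolism or are little described. SNF4Agamma encodes the regulatory subunit of the energy sensor AMPK and had 5 summits, of 78.3 to 233.9, in introns between 36.1 and 55.1 kb from the 5′ end. The gene puc encodes a phosphatase that restrains JNK signalling. Its 5 summits fell in 2 groups between 6.49 and 10.1 kb from its 5′ end, scored 100.4 to 202.6, and ranked between 633 and 2758 in replicate 1 and between 840 and 3028 in replicate 4. The genes atos (80.6 to 216.7) and CG3764 (76.5 to 195.9) had 5 each and CG5953 (75.1 to 176.9) had 4. CG5953 was 1 of 4 genes with 4 summits and is the one with the highest score. These 15 genes together held 78 of the 407 summits.

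**Figure D3:**
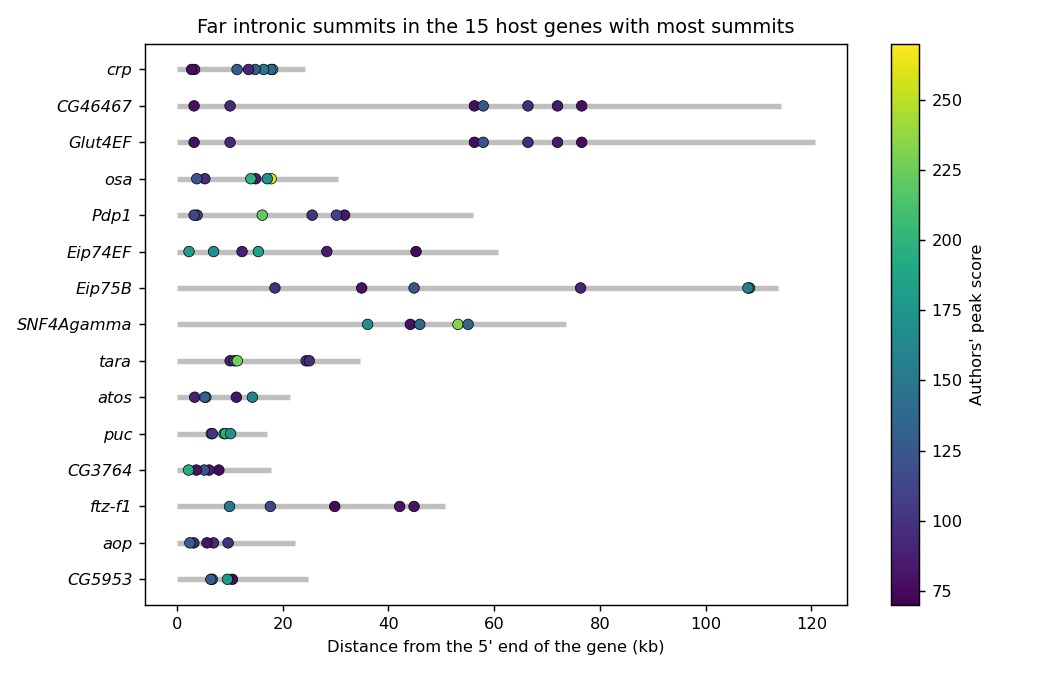
Position of each far intronic summit (points, coloured by the authors' score) along the 15 host genes with most summits (grey bars, 5′ end at 0 kb; ties by highest score). The 8 summits of crp lie between 2.77 and 18.1 kb, and CG46467 and Glut4EF overlap and share their 7 summits.

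All 15 of these genes also had a promoter peak. Over all hosts, 157 of 261 (60.2%, interval 53.9% to 66.1%) had a thresholded summit within 500 bp of one of their TSSs, against 959 of 3311 other genes with eligible intron (29.0%, 27.4% to 30.5%), where the share over both was 31.2%. The difference stood at each length of eligible intron: 65.2% of hosts and 30.4% of others at 1 to 5 kb, 63.5% and 20.9% at 10 to 20 kb, and 47.2% and 19.8% above 50 kb. Genes were not matched by their number of TSSs, and a gene with more TSSs has more places where a promoter peak can count. In 73 of the 157 hosts the strongest intronic peak scored above the promoter peak. For example, the osa intron reached 263.8 and its promoter 115.9, and the puc intron reached 202.6 and its promoter 99.0. In CG5953 the promoter peak scored 664.6 and the strongest intronic peak 176.9.

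The genes of 7 functional lists were counted against the 7.31% of all eligible genes. Genes of all 7 lists have longer introns than the median gene, with list medians of 7.38 to 32.7 kb of eligible intron against 1.53 kb over all, so the share of all genes is a loose guide. Among all eligible genes, hosts were 12.3% at 5 to 10 kb, 16.0% at 10 to 20 kb and 21.4% at 20 to 50 kb. The list median was 25.2 kb for ecdysone response, 25.4 kb for RNA-binding and germline regulators and 13.9 kb for signalling. It was 14.8 kb for transcription and chromatin regulators and 9.70 kb for epithelial polarity. Of the genes of ecdysone response and nuclear receptors, 9 of 17 (52.9%) were hosts, with 26 summits. These were EcR, tai, Eip74EF, Eip75B, E23, ftz-f1, Kr-h1, Eip63E and Hr3. EcR, the ecdysone receptor itself, had 3 summits, the strongest at 290.4 with ranks of 194 in replicate 1 and 461 in replicate 4, and had no promoter peak. The coactivator gene tai had 2, the stronger at 186.1 and 28825 bp from a TSS.

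In the signalling list 14 of 34 genes (41.2%) were hosts, with 28 summits. The strongest were in mam, the Notch coactivator (3 summits, up to 205.7), Stat92E, the transcription factor of JAK-STAT signalling (3, up to 190.2), and Socs36E, an inhibitor of the same pathway (1, 187.2). The insulin receptor gene InR had 3, up to 176.8, and foxo, the Forkhead factor that insulin signalling restrains, had 2, up to 130.8. The list of transcription and chromatin regulators had 12 hosts of 42 (28.6%) and 37 summits, led by osa, tara and Pdp1. The RNA-binding and germline regulators had 8 hosts of 28 (28.6%) with 11 summits, which was 0.0788 per 10 kb of eligible intron, below the 0.1197 over all genes. The first of them by score were hts, the adducin of germline fusomes (177.2), pum, the translational repressor Pumilio (160.2), and mbl, the splicing factor muscleblind (103.3). In this list 20 of the 28 genes had a promoter peak.

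The epithelial polarity and cytoskeleton list had 7 hosts of 27 (25.9%). Among them ena, an actin regulator, had 2 summits, up to 192.6, chic, which encodes profilin, had 1 at 183.6, and the adhesion gene Fas3 had 2, up to 178.7. Of 53 neuronal adhesion and ion channel genes, whose median of 32.7 kb of eligible intron was the longest of the lists, 4 were hosts (7.55%): caps (239.2), Ih (122.9), KCNQ (108.3) and Lar (82.8), each with 1 summit. Among all genes with 20 to 50 kb of eligible intron the share was 21.4%. Per 10 kb of eligible intron this list had 0.0199 summits, against 0.466 in the ecdysone list and 0.1197 over all genes. Of 14 muscle structure genes, 1 was a host, Prm (95.9), which encodes paramyosin. These counts are descriptions of the lists and were not tested.

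**Figure D4:**
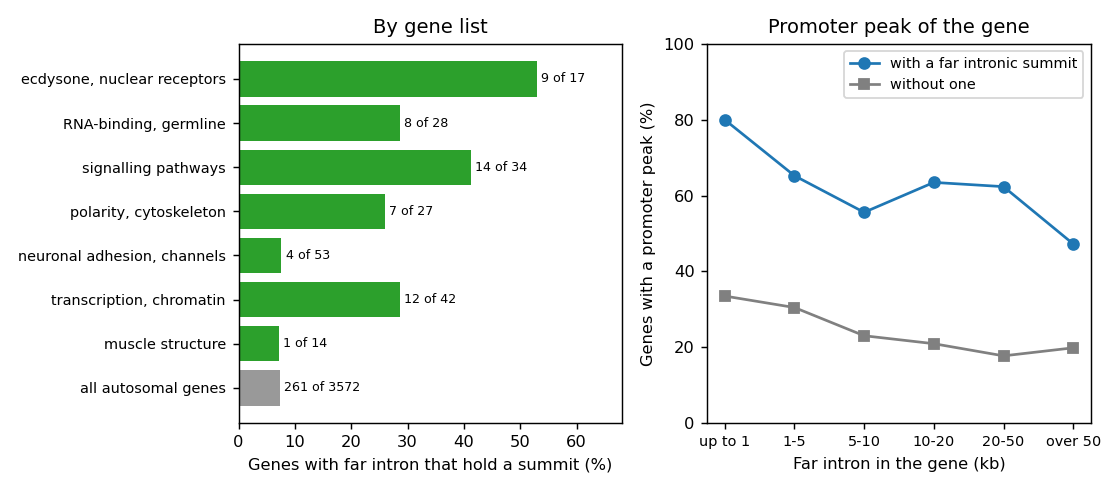
Left, share of genes with far intron that hold a far intronic summit, by gene list, with counts and all autosomal genes in grey, not matched for intron length. Right, share of genes with a promoter peak among hosts (blue) and other genes (grey) by length of far intron, higher in hosts in every length class (47.2% against 19.8% above 50 kb).

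Far intronic summits held the Ovo core site more often than the DNA beside them. TAACNGT, searched on both strands, stood within 50 bp of 46 of the 407 summits (11.3%, interval 8.39% to 14.8%) and in 23 of 814 windows of equal width 500 bp to either side (2.83%), a ratio of 4.00. The two-sided exact McNemar test gave p = 3.39e-06 against the left flank and 2.06e-06 against the right. Over all thresholded peaks the share at the summit was 14.5%. The 46 peaks held 50 sites, centred at a median of 24 bp from the summit, and 4 peaks held 2 or more. Only sites within 50 bp were counted, and sites placed evenly over that window would have a median near this value. The open base of the core was G in 30 of the 50 sites, T in 11, A in 6 and C in 3. In the flanks it was G in 4 of 27 sites, T in 14, A in 6 and C in 3.

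The share with a core site was compared with that of other peaks in 4 two-sided Fisher's exact tests, adjusted together by Benjamini-Hochberg. Near intronic autosomal peaks had 16.9% (odds ratio 0.63, 95% interval 0.414 to 0.947, adjusted exact p = 0.0964, p = 0.0241 before adjustment). This difference did not pass the test. It passed in the lists of either replicate alone (odds ratio 0.57 in replicate 1, 0.52 in replicate 4). Those lists are the 4477 best peaks of each replicate's own list of 30000, without the reproducibility threshold. They share reads and many peaks with the main list, so they are not independent tests of the difference. Promoter peaks had 13.2% (odds ratio 0.84, 0.589 to 1.17, adjusted exact p = 0.334) and X far intronic peaks 14.97% (odds ratio 0.72, 0.408 to 1.32, adjusted exact p = 0.325). The 203 highest-scoring far intronic peaks had 14.3% and the 203 lowest-scoring 8.37% (odds ratio 1.82, 0.93 to 3.67, adjusted exact p = 0.168). In the list of replicate 1 alone these last 2 kinds of comparison passed, with odds ratios of 0.55 against X far intronic peaks (adjusted exact p = 0.0495) and 2.75 between higher-scoring and lower-scoring peaks (adjusted exact p = 0.0121), and in that of replicate 4 alone they did not. By score order the first 100 held 22 peaks with a core site, the next 100 held 7, the third 100 held 10 and the last 107 held 7. By distance, 17.6% of the summits at 2001 to 3000 bp from a TSS had a core site, 10.1% at 3001 to 5000 bp and 11.7% at 5001 to 10000 bp. The share was 6.25% at 10001 to 20000 bp (4 of 64), and 0 of 13 had one beyond. These shares by distance were not tested.

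A search of all distinct 6-mers called 26 (1.25%) as more frequent within 50 bp of these summits than in the flanks and 19 (0.913%) as less frequent, by two-sided Fisher's exact tests with Benjamini-Hochberg adjustment. The first was CCGTTA, the reverse complement of TAACGG and part of the core site, in 12.8% of summit and 1.47% of flanking windows (ratio 8.67, adjusted exact p = 1.49e-12). The second was GTAAAC, in 68 summits (16.7%) and 5.28% of flanking windows (ratio 3.16, adjusted exact p = 3.14e-07). GTAAAC is the heart of the site bound by Forkhead (FOX) transcription factors. The next pair, ACGGTA (adjusted exact p = 1.93e-05) and then AACGGT (adjusted exact p = 2.92e-05), overlap the core site. The fifth was GCAAAC, in 18.7% and 7.99% (ratio 2.34, adjusted exact p = 3.95e-05), and CAAACA, in 23.1% and 12.4% (adjusted exact p = 0.000627). The less frequent 6-mers were rich in A and T, led by AATTTA (8.11% and 20.3%, adjusted exact p = 1.1e-05). They had a median of 0 G or C bases, where all 6-mers have 3. The summits averaged 43.0% G+C and their flanks 38.6%, and the part of base composition in these calls was not tested.

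GTAAAC and the core site were each found at a minority of peaks, so few peaks would hold both even if the 2 were unrelated. Of the 407, 65 had GTAAAC without a core site, 43 a core site without GTAAAC and 3 had both, so 111 (27.3%) had at least 1 of them. Among the 46 peaks with a core site 3 had GTAAAC, where 68 of all 407 (16.7%) did. This overlap was not tested. GTAAAC lay at a median of 24.5 bp from the summit over 75 occurrences within 50 bp, which is also near the value for even placement in that window. Its share varied little with the score: 17 of the first 100 peaks, 16 of the next, 18 of the third and 17 of the last 107. Peaks with it included 1 each in smash, CG13917, wts, bmm, Stat92E, pum, ena, Eip74EF, Eip75B, EcR, crp and puc, several of which also held summits without it.

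GTAAAC was then counted in the other classes of peak, a comparison chosen after these counts were seen. It stood at 16.7% of far intronic summits (interval 13.2% to 20.7%), 11.1% of near intronic summits, 7.49% of autosomal promoter summits and 6.12% of X far intronic summits. Against promoter peaks the odds ratio was 2.48 (1.80 to 3.39) and passed over all 6-mers (two-sided Fisher's exact test, adjusted exact p = 1.16e-05). Against near intronic peaks it was 1.61 (1.07 to 2.44, adjusted exact p = 0.92, p = 0.0175 before adjustment) and against X far intronic peaks 3.07 (1.47 to 7.20, adjusted exact p = 0.798, p = 0.00122 before adjustment). Neither of these passed over all 6-mers. Against their own flanks, with adjustment over the 26 called 6-mers, GTAAAC was more frequent at near intronic summits (11.1% and 4.55%, adjusted exact p = 6.43e-05) and at promoter summits (7.49% and 4.55%, adjusted exact p = 4.15e-06). It did not pass at X far intronic summits (6.12% and 3.74%, adjusted exact p = 0.49), and CCGTTA did (15.6% and 0.68%, adjusted exact p = 1.24e-08). Of the 26 called 6-mers, 23 were higher at X far intronic summits than in their flanks, and 6 passed the test there. The share of all 6-mers that were higher at X summits was not counted, so 23 has no background here. X far intronic summits averaged 42.6% G+C and their flanks 38.4%, and the part of base composition was not tested.

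Set against autosomal promoter summits over all 6-mers, a comparison also added after the data were seen, 57 (2.74%) were more frequent at far intronic summits and 40 (1.92%) less. The first were ATTTGC (21.4% and 9.10%, odds ratio 2.71, adjusted exact p = 4.19e-08), GCAAAC (18.7% and 7.44%, odds ratio 2.85, adjusted exact p = 4.19e-08) and CAAACA (23.1% and 11.03%, adjusted exact p = 3.6e-07). ATCGAT, the middle of the DRE site of promoters, was less frequent (1.47% and 8.34%, odds ratio 0.16, adjusted exact p = 6.91e-06). Against near intronic summits only 2 passed as more frequent, AGACAA (9.83% and 2.88%, adjusted exact p = 0.0322) and ACTTAG (4.91% and 0.444%, adjusted exact p = 0.0322), and 0 as less. Before adjustment, 48 more and 52 less frequent 6-mers had a p under 0.05. With all distinct 6-mers tested, unadjusted counts of this size can arise by chance, so they show no further differences from near intronic summits. Summits averaged 43.0% G+C in far intronic and 40.4% in promoter peaks.

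Among 14 known site patterns, searched on both strands with adjustment over the 14, the Forkhead pattern TAAACA was in 21.9% of far intronic summits and 13.5% of flanks (adjusted exact p = 0.0224 on the left and 0.0146 on the right by exact McNemar tests). It was in 13.2% of promoter summits (odds ratio 1.84, 1.40 to 2.42, adjusted exact p = 8.29e-05). The DRE pattern TATCGATA, a mark of promoters of broadly active genes, was at 0 of 407 far intronic and 3.54% of promoter summits (adjusted exact p = 2.82e-05). The GAGA factor pattern GAGAGAG was in 5.65% and 1.97% of flanks, and passed against the right flank (adjusted exact p = 0.0162) but not the left (0.0965). The Stat92E pattern TTCNNNGAA was less frequent (1.47% and 4.05% of flanks) and passed against the left flank only (adjusted exact p = 0.0208, with 0.716 on the right). A permuted control, TNACAGT, was in 5.65% and 4.67% (adjusted exact p = 0.829 and 0.986). The other 8 patterns, among them E-boxes, Zelda, AP-1, GATA, CREB and Tramtrack sites, passed against neither flank. A match is a stretch of letters and not a shown binding site.

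**Figure D5:**
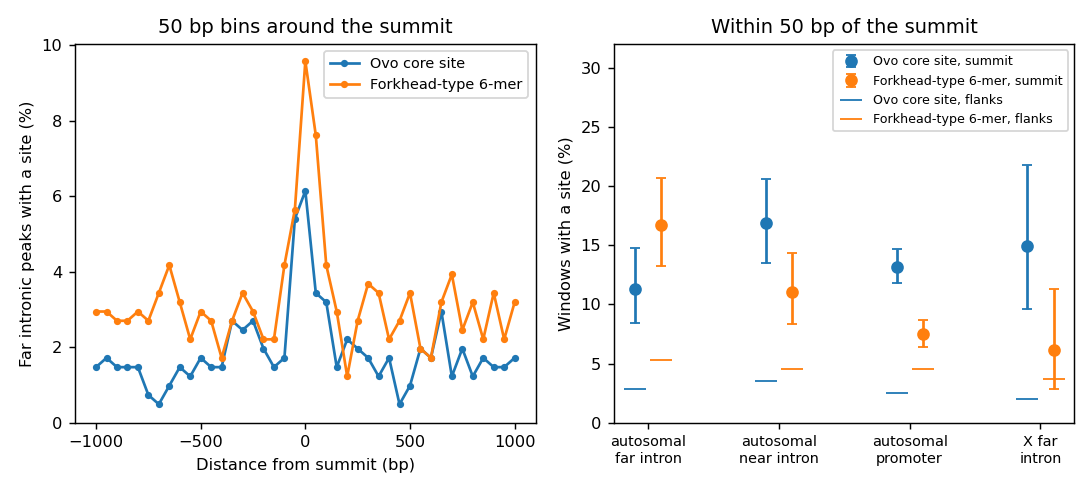
Left, share of the 407 far intronic peaks with an Ovo core site (blue) or the Forkhead-type 6-mer (orange) in 50 bp bins around the summit. Right, share of summits with each site within 50 bp (points, 95% Clopper-Pearson intervals) and in flanking windows (dashes) by class of peak. The Forkhead-type 6-mer stood at 16.7% in autosomal far introns, 11.1% in near introns, 7.49% at promoters and 6.12% in X far introns. Over all 6-mers, far introns differed from promoters, but not from near introns or X far introns.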

How the data were processed

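Per the labels' protocols, sonicated chromatin of whole transgenic females was precipitated with an anti-GFP antibody. The authors deposited dm6 peak lists: a relaxed list of 30000 peaks for each replicate and for the pooled reads, and a thresholded list made with the irreproducible discovery rate procedure, per the deposited readme text. Neither the caller nor the rate limit is given in the sources used here. The authors' score was deposited for each peak, and for the pooled and thresholded lists it derives from the alignments of both replicates and of the control. No read counts are given, so the depth is unknown and confidence intervals reflect peak numbers alone. The dm3 lists were not used. The thresholded list equals the 4477 best peaks of the pooled list.

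Summits were placed on dm6 with the Ensembl release 115 annotation (13945 protein-coding genes) and sequence of genome Release 6 from RefSeq, with Python 3.11.15, scipy 1.17.1, numpy 2.4.6 and pandas 2.3.3. Tests were two-sided: exact McNemar tests for known sites at summits and flanks, and Fisher's exact tests between classes and for 6-mers at summits against both flanks pooled, which leaves out that each flank belongs to a summit, with an adjusted p under 0.05 as the threshold. They treat peaks as units, although all peaks come from the same 2 libraries, and neighbouring peaks share DNA. The 6-mer test was checked on simulated sequences with a planted site. Genes named are the 15 hosts with most summits (ties by highest score), hosts of the 15 highest-scoring peaks and the 3 highest-scoring hosts of each of 7 lists, and InR, foxo, wts, bmm, chrb and the other genes around printed sequences or GTAAAC were added afterwards. Of the list symbols, 6 were matched through synonyms. The peaks, lists and tests were chosen with earlier results of these data known.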

Additional observations from a re-analysis of the deposited data

How the results depend on the processing

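No paired analysis was possible because there is 1 group. Over 113 alternative values, 80 kept their direction and side of the threshold or size. Moving the TSS limit to over 1000 bp gave 616 peaks, 15.5 per Mb, 103 more and 82 less frequent 6-mers and an odds ratio of higher-scoring against lower-scoring peaks of 2.35 (adjusted exact p = 0.00389). A limit of over 5000 bp gave 197 peaks, 130 hosts, 46 of them with 2 or more summits, 7.88 per Mb, and 3 more and 4 less frequent 6-mers. The 1000 highest-scoring peaks alone gave 67 peaks, 61 hosts, 6 of them with 2 or more, 1.94 per Mb, 1 more and 0 less frequent 6-mers, and an odds ratio against promoters of 1.16, which reverses the main direction (adjusted exact p = 0.837). In that set GTAAAC did not pass against flanks (ratio 2.67) or promoters (ratio 1.41). These sets hold more or fewer peaks by construction. With exons and TSSs of all annotated genes the odds ratio against near intronic peaks was 0.57 (adjusted exact p = 0.0326).

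Windows of 25 bp gave 13 more and 9 less frequent 6-mers and an odds ratio against near intronic peaks of 0.46 (adjusted exact p = 0.0118). Windows of 100 bp gave 75 and 68 6-mers, an odds ratio against near intronic peaks of 0.61 (adjusted exact p = 0.0158) and against X far intronic peaks of 0.58 (adjusted exact p = 0.0381). The top against the bottom quintile by score gave 4.01 (adjusted exact p = 0.0413). Without replicate 4 or replicate 1 the odds ratios were 0.57 and 0.52 against near intronic peaks (adjusted exact p = 0.0121 and 0.00633), 0.55 and 0.75 against X far intronic peaks (adjusted exact p = 0.0495 and 0.364), and 2.75 and 1.71 between higher-scoring and lower-scoring peaks (adjusted exact p = 0.0121 and 0.19), so the comparisons with X and by score passed in replicate 1 alone. The cause was not tested. Core site enrichment over flanks passed under every alternative run, with ratios from 3.14 to 7.50. Unknown depth and the shared 2 libraries limit all of these values.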

Other observations

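Peaks in 3 further hosts are given as values; the genes were picked after their values were seen, and no list of such genes was counted. REPTOR, a transcription factor downstream of TORC1, held a summit scored 271.2 with ranks of 382 in replicate 1 and 389 in replicate 4. PRAS40, an inhibitor of TORC1, held 3, of scores 269.0, 94.6 and 80.9. The strongest of these ranked 312 in replicate 1 and 545 in replicate 4. The gene chrb, which encodes the stress-induced TORC1 inhibitor Charybde, held one scored 261.1 with a core site and ranks of 274 and 497.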
